A study of Mus musculus with 12 samples.

Results

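The E2F transcription factors were examined in RNA-seq data of C2C12 GFP cells, an immortalized mouse myoblast line that expresses green fluorescent protein, taken through differentiation toward myotubes on different culture surfaces. The family was defined by gene name as E2f1 to E2f8, and its 8 members were read from the 55536 genes of the deposited count table. They were grouped by their known roles as 3 activators (E2f1, E2f2, and E2f3), 3 canonical repressors (E2f4, E2f5, and E2f6), and 2 atypical repressors (E2f7 and E2f8). The control group was grown on uncoated plates. The plates of the other groups carried Collagen I, fibronectin, or Geltrex, which is a basement membrane extract. Each of the 4 groups had 3 samples, and all 12 came from the same GFP-expressing line, without a knockout or drug. The sources used here state neither the day of differentiation at which this RNA was taken nor whether the 3 samples of a group were separate cultures, so p-values measure the spread between these samples, which may be technical.

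E2F proteins bind a shared DNA element in the promoters of genes for DNA synthesis and cell division. The activators and canonical repressors bind it as dimers with a DP partner, and the pocket proteins Rb1, Rbl1, and Rbl2 hold most of them inactive or turn them into repressors until cyclin-dependent kinases release them. E2F6 works apart from pocket proteins in a Polycomb complex, and E2F7 and E2F8 bind DNA without DP and lower the transcription of E2F target genes, their own family included. Leaving the cell cycle with E2F targets switched off is part of how myoblasts become myotubes.

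Total counts per sample ranged from 22520404 to 27351766, and all 8 members were among the 14499 genes that passed the filter on low counts. Levels are given as CPM, read counts divided by library size after TMM scaling (edgeR's correction for differences in library composition), in the order of replicates 1, 2, and 3. Where genes are compared with each other, TPM is used. It divides raw counts by exon length and scales each sample to the same total, without TMM, so changes between groups can differ from those in CPM. Log2 fold changes with their SE come from edgeR's quasi-likelihood test on all 12 samples, with Benjamini-Hochberg adjustment over the 14499 genes tested, and a gene was called at an adjusted p of at most 0.05. Collagen I replicate 3 stood apart from replicates 1 and 2 of its group, with a chi-square per degree of freedom of 54.1 and 78.9 against 9.04 between those replicates. The Geltrex samples differed least, at 2.31 to 5.15, compared with 24.7 to 37.6 in the control and fibronectin groups. All 8 myotube markers examined, such as Myog and Ckm, were detected and tested. Markers of other cell types were nearly absent, with Epcam and Krt8 at 0 counts and only Cd68, a macrophage gene, passing the filter among 7.

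Per length, E2f4 was the most abundant member on every surface. Its level was 52.4 ± 4.04 TPM (SD, n = 3) in the control, 47.5 ± 2.41 on Collagen I, 46.8 ± 1.99 on fibronectin, and 45.2 ± 1.78 on Geltrex, and it did not overlap that of the next member in any group. E2f5 was second throughout, at 31.7 ± 1.02, 27.0 ± 2.29, 37.8 ± 2.56, and 26.0 ± 1.05 TPM in the same order. In the control, the following places were taken by E2f6 at 29.7 ± 0.527 TPM, E2f3 at 23.8 ± 0.888, E2f8 at 22.1 ± 2.28, and E2f1 at 17.3 ± 1.38, and among these only E2f3 and E2f8 overlapped as neighbours. On Collagen I the neighbours from E2f5 down to E2f8 overlapped each other. On fibronectin, E2f8 followed E2f5 at 33.0 ± 6.52 TPM, overlapping E2f5 and, below it, E2f3. On Geltrex, E2f1 followed E2f5 at 24.9 ± 0.148 TPM, apart from its neighbours. The 2 lowest members were E2f2, at 4.44 to 6.69 TPM as group means, and E2f7. E2f7 was last in the control at 1.46 ± 0.192 TPM and on Collagen I at 0.807 ± 0.122, while on fibronectin it reached 6.38 ± 1.42 and overlapped E2f2. On Geltrex it was again last, at 6.06 ± 0.128.

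**Figure D1:**
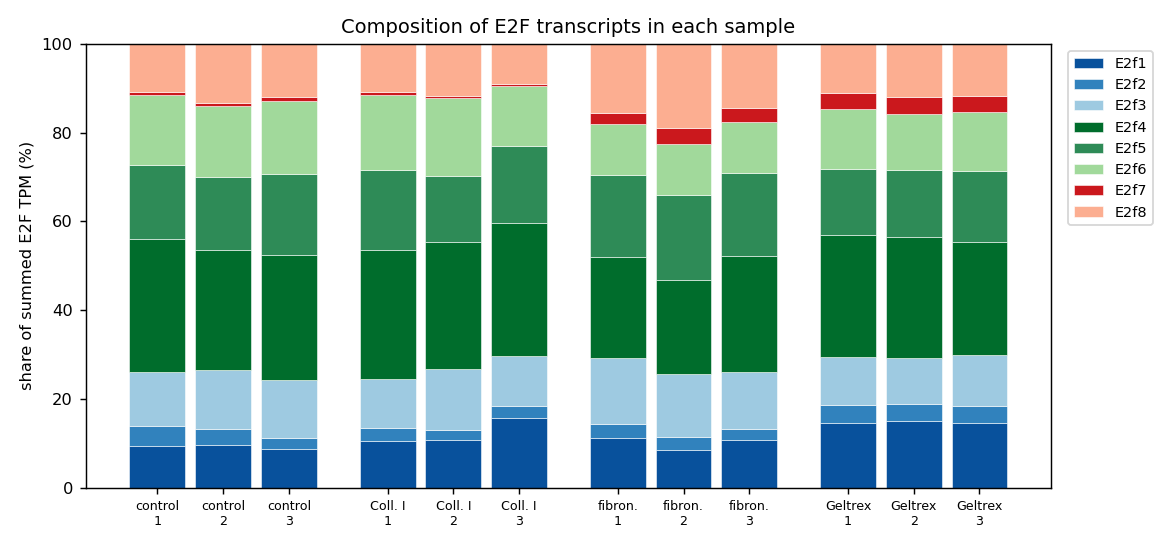
Share of each E2F gene in the summed TPM of the 8 members, in percent, for each of the 12 samples (bars, labelled by group and replicate). The E2f7 share averaged 0.791% in the control and 0.495% on Collagen I, compared with 3.16% on fibronectin and 3.58% on Geltrex.

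The family as a whole added up to 185 ± 6.62 TPM in the control, 163 ± 12.3 on Collagen I, 202 ± 12.5 on fibronectin, and 169 ± 1.63 on Geltrex. The plot of composition by sample shows how this sum was divided. The canonical repressors held 61.6% ± 1.83 of it in the control and 62.0% ± 1.73 on Collagen I, compared with 53.6% ± 2.37 on fibronectin and 55.3% ± 0.521 on Geltrex. The atypical repressors held 12.7% ± 1.24 and 11.0% ± 1.42 in the first pair of groups and 19.4% ± 2.75 and 15.2% ± 0.564 in the second. The activators held 25.7% ± 1.19 in the control, 27.0% ± 2.50 on Collagen I, 27.0% ± 1.92 on fibronectin, and 29.5% ± 0.368 on Geltrex. E2f7 and E2f8 were also balanced differently. The E2f7 to E2f8 ratio of TPM was 0.0668 ± 0.0133 in the control, 0.0473 ± 0.00441 on Collagen I, 0.194 ± 0.0286 on fibronectin, and 0.308 ± 0.00785 on Geltrex, without overlap between fibronectin and Geltrex or between these and the other groups. These sums and ratios were not tested.

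Relative to the control, a few members were called on fibronectin and on Geltrex and none on Collagen I, in numbers near the shares of all genes. On fibronectin, 3 of the 8 members were called, with E2f7 and E2f8 higher and E2f6 lower, against 31.9% of all genes tested (17.1% higher and 14.7% lower). On Geltrex, 4 were called, with E2f1 and E2f7 higher and E2f3 and E2f6 lower, against 33.0% of all genes (16.4% higher and 16.6% lower). On Collagen I, edgeR called 0 members, against 1.12% of all genes (0.200% higher and 0.917% lower). There 4 members had an unadjusted p under 0.05, each of them lower, and DESeq2 called 1, E2f7. The shares of all genes under those rules are not given here, so these counts have no background beside them. The numbers of members called by edgeR were near the background on each coating, Collagen I included. The median log2 fold change over the 8 members was 0.20 on fibronectin, -0.16 on Geltrex, and -0.18 on Collagen I, beside -0.02, -0.01, and -0.0031 over all genes. When a fold change of at least 2 was also required, E2f7 was the member left in the fibronectin and Geltrex comparisons, where 6.66% and 9.14% of all genes met that rule. No member met it on Collagen I against the control, where 0.131% of all genes did. In bulk RNA of this kind, fewer cells of a type and less RNA per cell cannot be told apart.

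**Figure D2:**
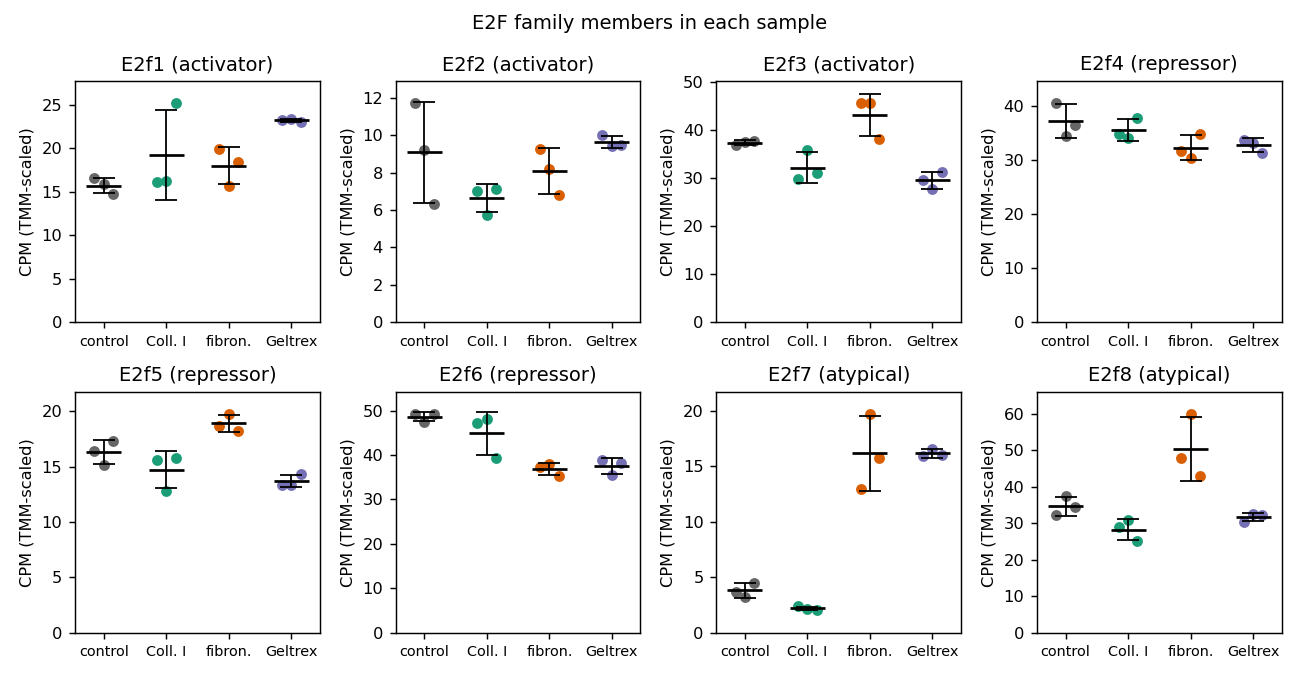
Level of each E2F gene in every sample, in CPM after TMM scaling on a linear axis from 0. Points are samples, long bars are group means, and whiskers are ± SD (n = 3). E2f7 lies between 2.07 and 4.50 CPM in the control and Collagen I samples and between 13.0 and 19.7 on fibronectin and Geltrex.

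Among the activators, E2f1 was higher and E2f3 lower on Geltrex than in the control. E2f1 (ENSMUSG00000027490, chr2:154559407-154569892 of GRCm38, minus strand) drives entry into S phase and can also induce apoptosis. It stood at 16.5, 15.8, and 14.8 CPM in the control, 16.2, 16.3, and 25.2 on Collagen I, 19.9, 15.7, and 18.5 on fibronectin, and 23.2, 23.4, and 23.1 on Geltrex. The Geltrex samples all lay above the control samples, and Collagen I replicate 3 was the highest of all 12. E2f1 rose 1.48-fold on Geltrex (log2 fold change 0.56, SE 0.15; edgeR adjusted p = 0.00746). On fibronectin its log2 fold change over the control was 0.20 (95% interval -0.11 to 0.51; edgeR adjusted p = 0.327). The direct difference between fibronectin and Geltrex was -0.36, with an adjusted p of 0.0905 by edgeR, although their samples did not overlap, which held for 42.7% of all genes in that comparison. This difference passed the threshold without Collagen I replicate 3 (edgeR adjusted p = 0.0100), with no filter on low counts (0.0257), and with only these groups in the model (0.0183), and over all alternatives its adjusted p ranged from 0.0100 to 0.438. Between Collagen I and Geltrex the log2 difference was -0.28 (edgeR adjusted p = 0.149), and without Collagen I replicate 3 it was -0.52 (adjusted p = 0.00166), with a range over alternatives from 0.00166 to 0.416.

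E2f2 (ENSMUSG00000018983, chr4:136172394-136196057, plus strand), an activator with roles close to those of E2f1, varied most within the control. Its values were 11.7, 9.21, and 6.33 CPM there, 7.02, 5.76, and 7.12 on Collagen I, 9.28, 8.21, and 6.80 on fibronectin, and 10.04, 9.43, and 9.47 on Geltrex. The control samples spanned nearly the whole range of the others. Relative to the control, its log2 fold changes were -0.46 on Collagen I, -0.17 on fibronectin, and 0.08 on Geltrex, with edgeR adjusted p of 0.261, 0.515, and 0.766. It was lower on Collagen I than on Geltrex by a log2 difference of -0.54 (SE 0.19; edgeR adjusted p = 0.0310). That call was lost without Collagen I replicate 2 or without any of the 3 Geltrex samples, with adjusted p from 0.0608 to 0.0989 among these and from 0.00235 to 0.179 over all alternatives.

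E2f3 (ENSMUSG00000016477, chr13:29906575-29986063, minus strand) is the activator most widely needed for proliferation, and its alternative promoters make longer and shorter proteins that gene-level counts cannot separate. It stood at 36.7, 37.5, and 37.7 CPM in the control, 29.7, 35.7, and 30.9 on Collagen I, 45.6, 45.6, and 38.0 on fibronectin, and 29.6, 27.7, and 31.2 on Geltrex. All fibronectin samples were above the control and all Geltrex and Collagen I samples below it. Such separation from the control was seen for 41.6% of all genes on fibronectin, 50.4% on Geltrex, and 17.3% on Collagen I. E2f3 fell 1.26-fold on Geltrex (log2 fold change -0.34, SE 0.09; edgeR adjusted p = 0.0119), and the call was lost without Geltrex replicate 2 (adjusted p = 0.0754, against 0.00291 to 0.177 over all alternatives). On fibronectin the log2 fold change over the control was 0.21 (edgeR adjusted p = 0.104), which passed without fibronectin replicate 3 (adjusted p = 0.0248, against 0.0248 to 0.276 over all alternatives). Fibronectin and Geltrex differed directly, with E2f3 1.46-fold higher on fibronectin (log2 difference 0.55, SE 0.09; edgeR adjusted p = 0.000720).

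Among the canonical repressors, E2f6 was the only one called against the control. E2f4 (ENSMUSG00000014859, chr8:105297663-105305370, plus strand), the main partner of pocket proteins in resting cells, had 40.6, 34.4, and 36.5 CPM in the control, 34.8, 34.0, and 37.8 on Collagen I, 31.6, 30.4, and 34.9 on fibronectin, and 33.7, 33.2, and 31.3 on Geltrex. It was not called in any of the 6 comparisons. Its 95% intervals against the control were -0.25 to 0.12 on Collagen I, -0.39 to -0.02 on fibronectin, and -0.37 to 0.0035 on Geltrex. E2f5 (ENSMUSG00000027552, chr3:14578641-14606309, plus strand), the closest relative of E2f4, stood at 16.5, 15.2, and 17.4 CPM in the control, 15.6, 12.8, and 15.8 on Collagen I, 18.7, 19.8, and 18.3 on fibronectin, and 13.4, 13.4, and 14.3 on Geltrex. As for E2f3, the fibronectin samples were all above and the Geltrex samples all below the control, yet neither difference was called, with log2 fold changes of 0.21 (edgeR adjusted p = 0.123) and -0.25 (adjusted p = 0.0715). The Geltrex difference passed with only these groups in the model (edgeR adjusted p = 0.0488, against 0.0488 to 0.367 over all alternatives). The difference between the coatings was called, with E2f5 1.38-fold higher on fibronectin than on Geltrex (log2 difference 0.47, SE 0.10; edgeR adjusted p = 0.00458). The exons of E2f5 share 26 bases, 1.46% of their length, with 1810022K09Rik on the opposite strand.

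E2f6 (ENSMUSG00000057469, chr12:16810963-16839742, plus strand) lacks the parts that bind pocket proteins and silences germline genes with the Polycomb complex PRC1.6. It had 49.3, 47.4, and 49.3 CPM in the control, 47.3, 48.1, and 39.3 on Collagen I, 37.2, 38.1, and 35.3 on fibronectin, and 38.9, 35.6, and 38.2 on Geltrex. Every fibronectin and Geltrex sample lay below every control and Collagen I sample. E2f6 fell 1.32-fold on fibronectin (log2 fold change -0.40, SE 0.09; edgeR adjusted p = 0.00219) and 1.30-fold on Geltrex (log2 fold change -0.37; adjusted p = 0.00313). The log2 difference between fibronectin and Geltrex was -0.03, with a 95% interval from -0.21 to 0.16. Against Collagen I it was lower on both coatings, with log2 differences of 0.29 from fibronectin (edgeR adjusted p = 0.0131) and 0.26 from Geltrex (adjusted p = 0.0267). The first was lost without Collagen I replicate 1 (adjusted p = 0.0596) or replicate 2 (adjusted p = 0.0621), and the second without either of these or any Geltrex sample, at adjusted p between 0.0566 and 0.126, and also with no filter on low counts (0.0798). Over all alternatives the adjusted p ranged from 0.00135 to 0.0621 and from 0.00287 to 0.259, respectively.

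The atypical repressors gave the clearest differences of the family. E2f7 (ENSMUSG00000020185, chr10:110745439-110787384, plus strand) represses E2F target genes during S phase and later, and is itself an E2F target. Its raw counts were 92, 89, and 106 in the control, 55, 58, and 48 on Collagen I, 349, 471, and 405 on fibronectin, and 372, 402, and 354 on Geltrex. After scaling these were 3.66, 3.26, and 4.50 CPM in the control, 2.38, 2.16, and 2.07 on Collagen I, 13.0, 19.7, and 15.7 on fibronectin, and 15.9, 16.6, and 16.0 on Geltrex. No sample of fibronectin or Geltrex overlapped the others, and every Collagen I sample lay below every control sample. E2f7 rose 4.24-fold on fibronectin (95% interval 3.36 to 5.35; log2 fold change 2.08, SE 0.16; edgeR adjusted p = 1.24e-07) and 4.25-fold on Geltrex (95% interval 3.37 to 5.36; log2 fold change 2.09, SE 0.16; edgeR adjusted p = 8.95e-08). The log2 difference between fibronectin and Geltrex was -0.0022, with a 95% interval from -0.30 to 0.30. Between Collagen I and Geltrex it was -2.87 (edgeR adjusted p = 6.79e-09), a 7.32-fold lower level on Collagen I. Relative to the control, E2f7 on Collagen I had a log2 fold change of -0.78 (SE 0.19) with an adjusted p of 0.0552 by edgeR. This value lay close to the threshold. It passed with DESeq2 (adjusted p = 0.00962), with no filter on low counts (0.00236), without fibronectin replicate 1 (0.0401), and without fibronectin replicate 2 (0.0251), and over all alternatives the adjusted p ranged from 0.00236 to 0.179. An antisense gene, 1700020G17Rik, shares 86 bases with the exons of E2f7 and had at most 1 count in a sample.

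E2f8 (ENSMUSG00000046179, chr7:48866429-48881596, minus strand), which acts together with E2F7 on many of the same promoters, followed a different pattern. It stood at 32.3, 37.5, and 34.4 CPM in the control, 28.9, 30.8, and 25.1 on Collagen I, 47.8, 60.0, and 43.1 on fibronectin, and 30.4, 32.5, and 32.1 on Geltrex. The fibronectin samples were above all others, while the Geltrex samples reached into the control range at its lower end. E2f8 rose 1.45-fold on fibronectin (log2 fold change 0.53, SE 0.11; edgeR adjusted p = 0.00215), and on Geltrex the log2 fold change was -0.13 (95% interval -0.38 to 0.11; adjusted p = 0.412). The direct difference between fibronectin and Geltrex was 0.67 (SE 0.11; edgeR adjusted p = 0.000654), a 1.59-fold higher level on fibronectin, whereas the same comparison gave -0.0022 for E2f7. Collagen I lay below fibronectin by a log2 difference of -0.83 (edgeR adjusted p = 3.96e-05). The exons of E2f8 share 610 bases, 11.2% of their length, with Gm2788 on the opposite strand, and whether the counting used strand is not given in the sources used here. Gm2788 had 4 to 15 counts per sample.

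**Figure D3:**
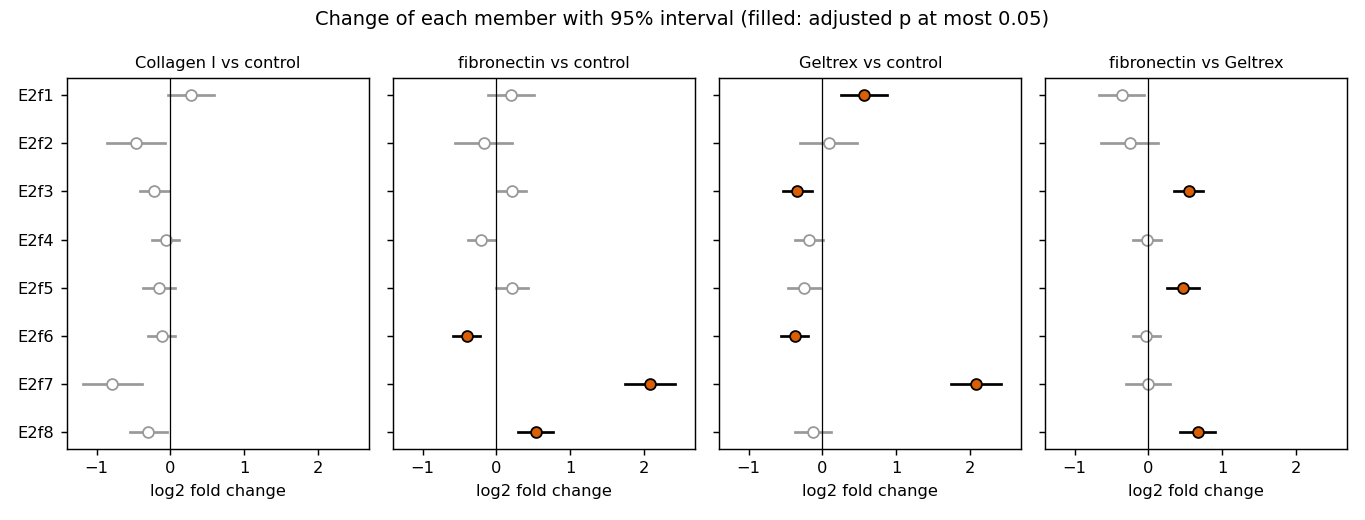
Log2 fold change of each member in 4 of the comparisons, with 95% intervals (n = 3 per group); filled points have an edgeR adjusted p of at most 0.05. E2f7 stands at 2.08 on fibronectin and 2.09 on Geltrex, and in the right panel E2f3, E2f5, and E2f8 lie above 0.

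Compared directly with each other, the 2 coatings that raised E2f7 differed in E2f3, E2f5, and E2f8. These 3 members, 1 of each role, were higher on fibronectin than on Geltrex, and no member was called lower, against 10.3% of all genes called higher, 9.06% called lower, and 19.3% called in either direction. None of the 3 reached 2-fold, which 3.98% of all genes did. When the 3 Geltrex samples were summed into 1, an alternative chosen after seeing how little they differed, the 3 calls were lost, with edgeR adjusted p of 0.0538 for E2f3, 0.124 for E2f5, and 0.0556 for E2f8, while the log2 differences stayed at 0.55, 0.47, and 0.67. The same alternative ended the Geltrex calls against the control for E2f1 (adjusted p = 0.0954), E2f3 (0.177), and E2f6 (0.106), but not for E2f7. Collagen I differed from fibronectin in 5 members, with E2f3, E2f5, E2f7, and E2f8 lower and E2f6 higher, against 45.0% of all genes (22.1% higher and 22.9% lower). E2f7 was the member that differed by at least 2-fold, against 8.46% of all genes. From Geltrex it differed in 3, with E2f2 and E2f7 lower and E2f6 higher, against 37.1% of all genes (18.2% higher and 19.0% lower). E2f7 alone again differed by at least 2-fold, against 9.32% of all genes. These comparisons share samples with each other and with those against the control, and are not independent.

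Promoter windows of E2f7, E2f8, and E2f3 are printed here because target genes of the family were also measured. RefSeq windows of GRCm38.p6 reach from 250 bases before to 50 bases after a transcript start and were found for 6 of the 8 members, all but E2f4 and E2f5. Both strands were searched for the E2F element (TTTCCCGC, TTTGGCGC, TTTGCCGC, or TTTCGCGC), for the cell cycle homology region, CHR, through which MuvB complexes bind (TTTGAA or TTCGAA), and for the CCAAT box. The 250 bases before the start of E2f7 (chr10:110745189-110745438, plus strand), E2f8 (chr7:48881597-48881846, minus strand), and the first start of E2f3 (chr13:29986064-29986313, minus strand) read as follows, 5′ to 3′ on the coding strand, with E2F and CHR matches on either strand in capitals:
E2f7: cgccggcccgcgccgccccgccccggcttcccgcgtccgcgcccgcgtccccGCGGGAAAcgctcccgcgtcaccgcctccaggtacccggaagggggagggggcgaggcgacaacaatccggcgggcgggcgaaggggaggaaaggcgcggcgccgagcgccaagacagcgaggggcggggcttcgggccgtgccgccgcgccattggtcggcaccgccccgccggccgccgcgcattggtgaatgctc
E2f8: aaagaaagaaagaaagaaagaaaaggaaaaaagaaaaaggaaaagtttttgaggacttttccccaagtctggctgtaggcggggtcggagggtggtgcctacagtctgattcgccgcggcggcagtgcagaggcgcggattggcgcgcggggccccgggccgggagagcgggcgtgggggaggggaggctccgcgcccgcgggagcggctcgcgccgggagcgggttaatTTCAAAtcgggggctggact
E2f3: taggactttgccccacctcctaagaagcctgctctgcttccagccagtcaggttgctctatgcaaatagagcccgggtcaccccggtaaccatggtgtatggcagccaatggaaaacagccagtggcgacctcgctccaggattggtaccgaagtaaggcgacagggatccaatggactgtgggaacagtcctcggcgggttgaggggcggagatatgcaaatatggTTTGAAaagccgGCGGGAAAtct

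The E2f7 window holds the E2F element TTTCCCGC on the reverse strand from 198 to 191 bases before the start, and 2 CCAAT boxes on the reverse strand. The E2f8 window holds no listed E2F element but a CHR, TTTGAA on the reverse strand, from 20 to 15 bases before the start. It also holds 1 CCAAT box on the reverse strand. In the first E2f3 window a CHR lies from 23 to 18 and an E2F element from 11 to 4 bases before the start, beside 3 CCAAT boxes. The second E2f3 window holds no match. The first E2f2 window holds TTTGGCGC from 39 to 46 bases after the start, beside 1 CCAAT box. The other E2f2 window holds a CHR from 31 to 26 bases before the start, beside 3 CCAAT boxes. The E2f1 and E2f6 windows hold no match. The start in the E2f1 window lies 466 bases downstream of the first annotated start of the gene. For the E2f2 window with the CHR this distance is 8388 bases, and for the second E2f3 window 1672 bases. Of all 32851 windows, 2.26% hold an E2F element, 19.2% a CHR, and 37.4% a CCAAT box. Per gene, 11 of the 23 G1/S target genes with a window had an E2F element (47.8%), compared with 1 of 12 G2/M genes (8.33%) and 2.60% of all genes. A CHR was found in 9 of those 12 G2/M genes (75.0%), compared with 21.7% of all genes. These matches describe letters in a window and say nothing of binding in these cells.

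Partners and regulators of the family were read from lists of other genes. Both DP partners rose slightly on fibronectin, Tfdp1 by a log2 fold change of 0.24 (edgeR adjusted p = 0.0281) and Tfdp2 by 0.28 (adjusted p = 0.0246), and neither was called on Geltrex, where both stood at 0.10. Both calls were lost with the Geltrex samples summed. Among the pocket proteins, Rbl1 (p107), itself an E2F target, had 12.2, 17.4, and 17.4 CPM in the control, 31.2, 37.0, and 30.8 on fibronectin, and 33.7, 33.4, and 34.8 on Geltrex. It rose by a log2 fold change of 1.08 on fibronectin (edgeR adjusted p = 1.85e-05) and 1.12 on Geltrex (adjusted p = 9.47e-06). Rb1, the retinoblastoma protein, had log2 fold changes of -0.31 and -0.14, and Rbl2 (p130), the pocket protein of resting cells, 0.20 and 0.14, and neither was called. Rb1 was called lower on fibronectin without Collagen I replicate 3 (edgeR adjusted p = 0.0255).

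The MuvB complex pairs with E2F4 and pocket proteins in resting cells and with Mybl2 and Foxm1 in dividing cells. Its subunits were read together with these partners, Mybl2 and Foxm1, as a list of 7 genes. Of the list, partners included, 4 rose on fibronectin and none fell, while on Geltrex 3 rose and 1 fell. Mybl2 (B-Myb) rose by log2 fold changes of 1.96 and 2.20, Foxm1 by 1.44 and 1.55, and the core subunit Lin9 by 0.68 and 0.63 on fibronectin and Geltrex, respectively. Lin54, the subunit that contacts the CHR, rose by 0.70 on fibronectin and stood at 0.34 on Geltrex without a call. Lin37, needed for repression by the resting form of the complex, fell by 0.73 on the log2 scale on Geltrex and was 1.38-fold higher on fibronectin than on Geltrex (log2 difference 0.46; edgeR adjusted p = 0.0167), a difference whose call was lost with the Geltrex samples summed. Of the 8 PRC1.6 partners of E2F6, 4 rose on fibronectin (Mga, Cbx3, Rnf2, and Rybp, log2 fold changes 0.33 to 0.64), 1 fell (Ring1, -0.38), and on Geltrex Rybp alone was called, at 0.46. Over all genes, 31.9% were called on fibronectin and 33.0% on Geltrex. The calls of Ring1 on fibronectin and of Rybp on Geltrex were lost with the Geltrex samples summed.

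Cyclins and kinases that act on the pocket proteins were mostly higher with both coatings. Ccnd1 (cyclin D1) had 16.6, 17.6, and 14.1 CPM in the control, 42.5, 46.7, and 41.8 on fibronectin, and 67.7, 61.8, and 63.4 on Geltrex, and its log2 fold changes were 1.44 and 1.99. Of the 8 genes, Ccnd1, Ccnd2, Cdk6, Ccne1, and Ccne2 rose in both comparisons, with log2 fold changes from 0.65 to 1.99. On fibronectin Ccnd3 fell by 0.58 and Cdk2 by 0.48 on the log2 scale, and on Geltrex neither was called. Among the CDK inhibitors, Cdkn1a (p21) fell by 1.16 on fibronectin and by 0.87 on Geltrex. Cdkn1b (p27) had 134, 146, and 153 CPM in the control, 149, 153, and 151 on fibronectin, and 88.0, 89.7, and 86.4 on Geltrex, and it fell by 0.71 on the log2 scale on Geltrex (edgeR adjusted p = 3.64e-06), whereas on fibronectin the log2 fold change was 0.07 (adjusted p = 0.552). Its level differed between fibronectin and Geltrex by 0.78 (edgeR adjusted p = 3.40e-06). Cdkn2c, an inhibitor of Cdk4 and Cdk6, rose in both, Cdkn2d rose on fibronectin, and Cdkn1c was not called. With the Geltrex samples summed, the calls of Cdkn2c on Geltrex and Cdkn2d on fibronectin were lost. Cdkn2a and Cdkn2b had 0 counts in all samples.

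Target genes of the family rose together on fibronectin and Geltrex. Of 27 G1/S targets, genes for DNA replication and nucleotide supply that E2F activators switch on, 24 rose on fibronectin (median log2 fold change 0.80), and 25 rose and 1, Cdc25a, fell on Geltrex (median 0.93). The fall of Cdc25a was lost with DESeq2 and with the Geltrex samples summed, which left 22 higher. Ccne1 and Ccne2, counted above among the cyclins, are also on this list of targets. The medians over all genes tested were -0.02 and -0.01, and 17.1% and 16.4% of all genes were called higher. Brca1, a DNA repair gene, rose by 1.68 and 1.81 on fibronectin and Geltrex, Cdc6, which loads the replicative helicase, by 1.64 and 2.09, and Uhrf1, which maintains DNA methylation, by 1.57 and 1.98. All 14 G2/M genes rose in both comparisons, with medians of 1.56 and 1.52. Bub1, a spindle checkpoint kinase, rose by 2.01 and 1.98, and Ccnb1 (cyclin B1) by 1.80 and 1.62. On Collagen I, 2 of the 27 G1/S targets fell against the control (Rrm2, -0.70, and Mcm7, -0.37), and the median over the list was -0.26. This count depended on the setting, with 12 lower at an unadjusted p under 0.05, 6 lower by DESeq2, 4 lower without Collagen I replicate 3, and 1 lower with the Geltrex samples summed. For the G2/M genes edgeR called 0 of 14 there, with 7 lower at an unadjusted p under 0.05 and 2 lower by DESeq2. On Collagen I edgeR called 0.917% of all genes lower, and the shares under the other rules are not given here. Between fibronectin and Geltrex, 3 of the 27 G1/S targets were lower on fibronectin (Cdt1, Pola2, and Uhrf1), against 9.06% of all genes. This count was near that share, and the calls did not hold with the Geltrex samples summed. Of the G2/M genes, 0 of 14 were called by edgeR, against 19.3% of all genes. None was called by DESeq2 or reached an unadjusted p under 0.05.

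Of the 6 apoptosis genes tied to E2F1, 5 were tested. Apaf1, which forms the apoptosome, rose by a log2 fold change of 0.50 on fibronectin, and Bcl2l11 (Bim) fell by 0.44 on the log2 scale on Geltrex, a call lost with the Geltrex samples summed. Trp73 had at most 1 count. None of the 4 germline genes that E2F6 keeps silent was expressed enough to be tested, with at most 6 counts for Smc1b and 1 for Stag3, Tuba3a, and Slc25a31 in any sample, including those in which E2f6 was lower.

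Myotube markers fell on fibronectin and Geltrex, where E2f7 and most of the targets rose. The 8 myotube markers, summed, lay between 6787 and 7706 CPM in the control and between 7356 and 7583 on Collagen I, compared with 2193 to 2577 on fibronectin and 3050 to 3332 on Geltrex. All 8 fell in both comparisons with the control (median log2 fold change -2.05 and -1.53), and 5 were lower on fibronectin than on Geltrex. With the Geltrex samples summed, 7 fell on Geltrex and 1 was lower on fibronectin than on Geltrex. The summed level of the 14 G2/M genes was 234 to 295 CPM in the control, 205 to 223 on Collagen I, 741 to 994 on fibronectin, and 789 to 844 on Geltrex. Of the 4 myoblast markers, 1 was lower on fibronectin (Cdh15) and 1 was lower on Geltrex (Myod1), against 14.7% and 16.6% of all genes. These counts became 2 and 2 without Collagen I replicate 3 and 0 and 0 with the Geltrex samples summed, and DESeq2 called 0 on Geltrex. The part of the proportion of dividing or fused cells in the E2F differences was not tested.

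**Figure D4:**
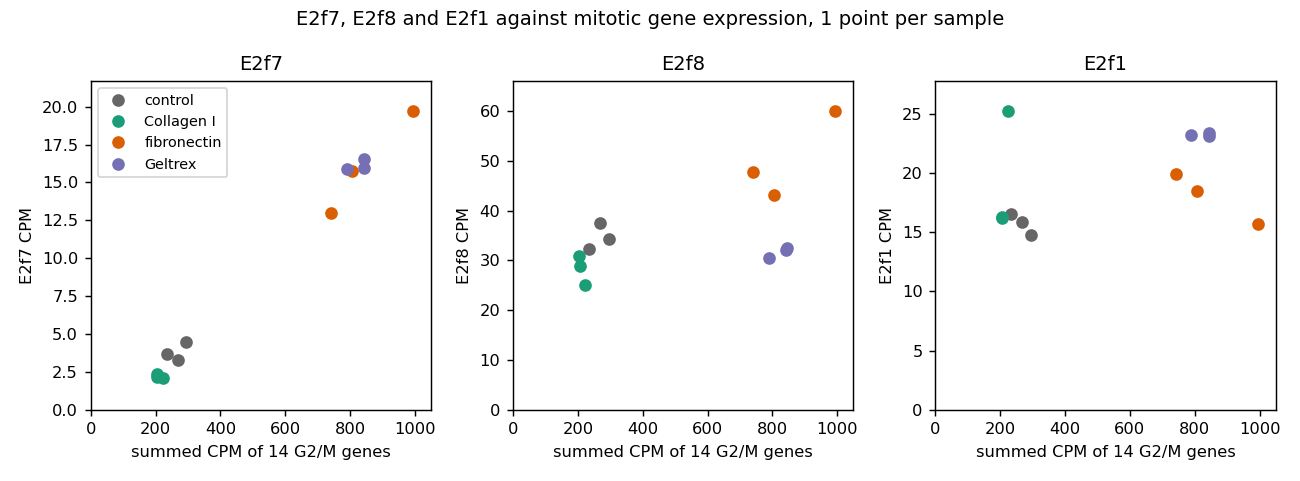
CPM of E2f7, E2f8, and E2f1 (vertical axes) against the summed CPM of 14 G2/M genes (horizontal axes), with 1 point per sample coloured by group. E2f7 is high in the 6 samples with a high G2/M sum, whereas for E2f8 the Geltrex samples (30.4 to 32.5 CPM) sit below fibronectin samples (43.1 to 60.0) at similar G2/M levels.

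The plot of E2f7, E2f8, and E2f1 against G2/M expression shows these members side by side. E2f7 was high in the 6 samples with a high G2/M sum, and within fibronectin replicate 2 had the highest value of both, 19.7 CPM and 994 CPM. E2f8 in that sample was also the highest, at 60.0 CPM, whereas E2f1 there was the lowest of its group, at 15.7 CPM. Likeness to other genes was measured as Pearson's r of log2 CPM over the 12 samples, among 12312 genes, and is given as a description, since the samples fall into groups that share a surface and the top genes were picked from many. The genes most like E2f7 were Exo1, a DNA repair exonuclease (r = 0.995), Kif2c, a mitotic kinesin (0.994), and Hmmr, a spindle-associated protein (0.993). After the group means were removed, these were 0.835, 0.740, and 0.838. The genes most like E2f8 were Vkorc1l1, Aebp2, and Prdm4 (r = 0.973, 0.972, and 0.972), those most like E2f1 were Klf4, Pfkl, and Cavin1 (0.945, 0.941, and 0.941), and those most like E2f6 were Tob1, Tbx15, and Mttp (0.972, 0.970, and 0.969). For E2f3 the closest gene was Gxylt2 (0.959), for E2f5 Pdlim1 (0.952), for E2f4 Med25 (0.937), and for E2f2 Sphk1 (0.919). Between members, r was 0.832 for E2f3 and E2f8, 0.770 for E2f3 and E2f5, 0.718 for E2f5 and E2f8, 0.587 for E2f7 and E2f8, 0.339 for E2f1 and E2f7, and -0.789 for E2f6 and E2f7.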

How the data were processed

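RNA-seq of 12 samples, 3 in each of 4 groups, was analysed. According to the study's methods, the authors used Trimmomatic for trimming, HISAT2 for alignment of paired reads, and featureCounts for counting, and deposited raw read counts per Ensembl gene, not normalized or pooled. Tool versions, genome build, annotation release, and strand setting are not given in the sources used here. All 55536 identifiers matched GENCODE M21 (GRCm38), which gave names, positions, and exon lengths for TPM. Genes were filtered with filterByExpr (minimum count 10, minimum total 15), scaled by TMM, and tested with the quasi-likelihood test of edgeR 4.0.16 in R 4.3.3 in 1 model with 8 residual degrees of freedom. The SE was the log2 fold change divided by the root of the F statistic. Alternatives were DESeq2 1.42.0, RLE scaling, no filter, at least 10 counts in every sample, the groups compared only, a replicate block, a 2-fold minimum, each sample left out, and the Geltrex samples summed. The procedure was tested on simulated data. Members, lists, and tests were chosen with earlier results of these data known. All members were named. The rule also allowed their DP, pocket, MuvB, cyclin, CDK, and inhibitor genes to be named. It further allowed the 3 largest changes per target list in each control comparison, and the genes most like a member. Of these other genes, only some are named here. The PRC1.6 genes, Cdc25a, Rrm2, Mcm7, Cdt1, Pola2, Cdh15, and Myod1 were named after their values were seen. Some genes of the apoptosis list are not reported here.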

Additional observations from a re-analysis of the deposited data

How the results depend on the processing

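The numbers of members called in the 6 comparisons were 0 (Collagen I and control), 3 (fibronectin and control), 4 (Geltrex and control), 5 (Collagen I and fibronectin), 3 (Collagen I and Geltrex), and 3 (fibronectin and Geltrex). The shares of all genes called were 1.12%, 31.9%, 33.0%, 45.0%, 37.1%, and 19.3% in the same order. Under alternatives other than leaving out a sample, 320 values kept direction and side of the threshold, 9 lost a call, 5 gained one, and 2 changed sign; when a sample was left out, these numbers were 549, 12, 5, and 10. DESeq2 and no filter on low counts each gave 1 member in place of 0 for Collagen I and control. A minimum of 2-fold left 1 member in each of the other comparisons except fibronectin and Geltrex, where it left 0. Summing the 3 Geltrex samples, an alternative added after the data were seen, left 1 member called against the control, 1 against Collagen I, and 0 against fibronectin, with 1 Geltrex sample assumed to vary like the other groups. Leaving out each sample gave 0 to 1, 3 to 4, 3 to 4, 4 to 5, 1 to 4, and 3 to 4 members, in the order control comparisons of Collagen I, fibronectin, and Geltrex, then Collagen I against fibronectin and Geltrex, then fibronectin against Geltrex. Apart from the 2-fold minimum, the shares of all genes called under these alternatives are not given here. Whether calls of members were lost more often than those of all genes was not tested. E2f7 changed sign between fibronectin and Geltrex, at 0.0028 with DESeq2 and 0.00035 with RLE scaling, and ran from -0.17 to 0.13 when a sample was left out. Leaving out a sample also turned uncalled differences near 0 in E2f4 (Collagen I and control, -0.12 to 0.0038), E2f2 (fibronectin and control, -0.37 to 0.055; Geltrex and control, -0.12 to 0.31), E2f1 (Collagen I and fibronectin, -0.15 to 0.20), E2f4 (fibronectin and Geltrex, -0.079 to 0.023), and E2f6 (fibronectin and Geltrex, -0.067 to 0.0028), and the cause was not tested. Whether replicate numbers pair the samples is not stated in the sources used here. Deviations of same-numbered samples correlated between -0.154 and 0.225. Samples with different numbers were not compared, so these values cannot decide whether a batch was shared. A replicate block left the counts at 0, 3, 4, 5, 3, and 3 and changed no call.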
